A study of Arabidopsis thaliana with 45 samples.

Results

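Glutathione transferases of the tau class (GSTU) and the phi class (GSTF) were followed in seeds of Arabidopsis thaliana that differ in their genes for glucosinolate synthesis and in imbibition. The genes were taken by name, GSTU1 to GSTU28, GSTF2 to GSTF8 and GSTF11 to GSTF14. This gave 39 of the 27587 loci in the deposited table, 28 of the tau class and 11 of the phi class. Total RNA of the entire seed of ecotype Col0 was sequenced in 45 libraries. The libraries carry the genotype labels cyp79B2 cyp79B3 (cyp), myb28 myb29 (myb), cyp79B2 cyp79B3 myb28 myb29 (qko) and WT, and the labels name no allele or line. Seeds of each genotype were imbibed for 6 h in 10 mM KNO3, in 8 µM KSCN or in water, or were left dry. Of the 16 groups, 13 held 3 libraries and 3 held 2, namely cyp in KSCN, dry myb and myb in KNO3. Nothing in the labels says that the replicates are separate plants or harvests, and the p-values measure only the spread between these samples, which may be technical.

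Glutathione transferases join the tripeptide glutathione to electrophilic compounds so that these can be stored or broken down, and the tau and phi classes are the most numerous ones in plants. Many of their genes are induced by herbicides, reactive electrophiles and oxidative stress, in part through TGA transcription factors, which bind promoter elements around the letters TGACG. Some members also serve secondary metabolism: GSTF11 and GSTU20 in aliphatic glucosinolate synthesis, GSTU13 in indolic glucosinolate metabolism, GSTF6 in the synthesis of the phytoalexin camalexin, and GSTF12 (TT19) in bringing flavonoid pigments to the vacuole of the seed coat. CYP79B2 and CYP79B3 make the precursor shared by indolic glucosinolates and camalexin, while the factors MYB28 and MYB29 activate the genes that make aliphatic glucosinolates.

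Library totals ran from 18097331 to 22910834 counts. A gene had to pass a filter on low counts to be tested, and 18066 loci passed, among them 31 of the 39 genes (24 tau and 7 phi). GSTU6, GSTU15, GSTU21, GSTU25, GSTF4, GSTF5, GSTF11 and GSTF14 did not pass, and their highest counts in any library ran from 2 to 12. The genes named in the genotypes were near or at 0 in WT seeds: MYB28 had 0 counts in all 45 libraries, and CYP79B3 averaged 2.61 CPM (counts relative to the library's total, adjusted by trimmed-mean scaling) in the 11 libraries labelled cyp, against 0.123 CPM in the 12 WT libraries. The transcript counts thus showed no loss of these genes, and cyp, myb and qko stand throughout for the libraries labelled so. Imbibed replicate 7 of qko, imbibed replicate 8 of cyp and replicate 6 of WT in KNO3 differed from the others of their groups in some of the genes. GSTU22 had 18.6 CPM in qko water replicate 7, against 9.35 and 7.57 CPM in replicates 4 and 6. GSTU19 had 740 CPM in replicate 8 of cyp in KNO3, against 362 and 516 CPM in replicates 6 and 7, and GSTU22 had 11.4 CPM in replicate 6 of WT in KNO3, against 1.34 and 1.98 CPM in replicates 5 and 8. Markers of seed tissues also differed between groups. The 4 embryo storage markers (CRU1, CRU2, CRU3 and OLEO1) together ran from 10641 to 17128 CPM in cyp in water, from 51430 to 55647 CPM in myb, from 39289 to 48286 CPM in qko and from 75778 to 77808 CPM in WT, and from 223980 to 257570 CPM in dry WT seeds. The dry sum ran from 103560 to 110250 CPM in cyp, 201590 to 215080 in myb and 195680 to 222620 in qko. The genes did not all go with the sum. In myb in water CRU1 had 715219, 720184 and 680775 counts before scaling, against 620288, 619994 and 621804 in WT. CRU2 had 3879, 4261 and 3445 counts, against 79105, 78754 and 78876, and CRU3 and OLEO1 were lower too. In dry myb CRU1 had 1667308 and 1718257 counts, against 1194016, 1011493 and 1137912 in dry WT, while CRU2, CRU3 and OLEO1 were lower. The 4 green tissue markers together ran from 102 to 162 CPM in cyp in water and from 14.1 to 19.4 CPM in WT in water. The difference lay in RBCS1A (3906, 2529 and 4128 counts before scaling, against 353, 375 and 270 in WT) and RBCS3B (784, 554 and 963, against 52, 54 and 17). LHCB1.3 had 46, 42 and 43 counts, against 33, 40 and 41, and LHCB1.1 had 1 to 4 counts in both groups. The 5 seed coat markers together ran from 8.76 to 9.86 CPM in cyp in water, from 10.7 to 10.9 CPM in myb, from 14.6 to 17.9 CPM in qko and from 9.37 to 11.4 CPM in WT, with 0 to 2 of them at 0 in each of the 16 groups. Among them BAN was lower in cyp (-1.70, adjusted p = 0.0311) and myb (-1.86, adjusted p = 0.0474) in water than in WT. Other genes of the list went different ways in water. MUM4 had 241, 244 and 250 counts before scaling in myb and 376, 407 and 292 in qko, against 158, 172 and 200 in WT. AHA10 had 23, 12 and 28 counts in myb and 18, 21 and 9 in qko, against 52, 65 and 60 in WT. The higher sum of qko thus came from MUM4. EPR1, the endosperm marker, ran from 1712 to 3391 CPM in cyp in water and from 5451 to 5699.5 CPM in WT in water. In water it ran from 2948 to 5955 CPM in myb and from 5100.5 to 10154 CPM in qko. Dry libraries ran from 6939 to 19628 CPM in cyp and from 12503 to 37409 CPM in myb. Those of qko ran from 17565 to 35479 CPM and those of WT from 16086 to 18407 CPM. The part of these markers in the results was not tested, and in whole seeds fewer cells of a type and less RNA per cell cannot be told apart.

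The family's RNA was concentrated in a few members. GSTU19, an abundant tau enzyme that acts on herbicides and other electrophiles, had the highest level per transcript length in 15 of the 16 groups, with group means from 327 to 1201 CPM per kb. GSTF2 and GSTF3, stress-responsive phi enzymes that are near copies of each other, came next in most groups, with 101 to 501 and 77.5 to 521 CPM per kb. In dry myb seeds GSTF3 (521 ± 115 CPM per kb, SD, n = 2) and GSTF2 (501 ± 73.4 CPM per kb) had higher means than GSTU19 (444 ± 43.1 CPM per kb), but the spreads of all 3 overlap. The leading 3 genes took from 64.7% (qko in KNO3) to 78.3% (dry qko) of the family's summed CPM per kb. GSTU7 entered the leading 3 in imbibed qko seeds, with 301 ± 19.6 CPM per kb in water, and in WT in KNO3, where replicate 6 stood apart. At the other end, 18 to 22 of the 39 genes were under 1 CPM per kb, depending on the group. The order in WT in water was GSTU19 (743 ± 25.7 CPM per kb, SD, n = 3), then GSTF2 (107 ± 12.9), GSTF3 (103 ± 14.3) and GSTU7 (96.7 ± 12.3), and the last 3 do not differ beyond their spread.

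**Figure D1:**
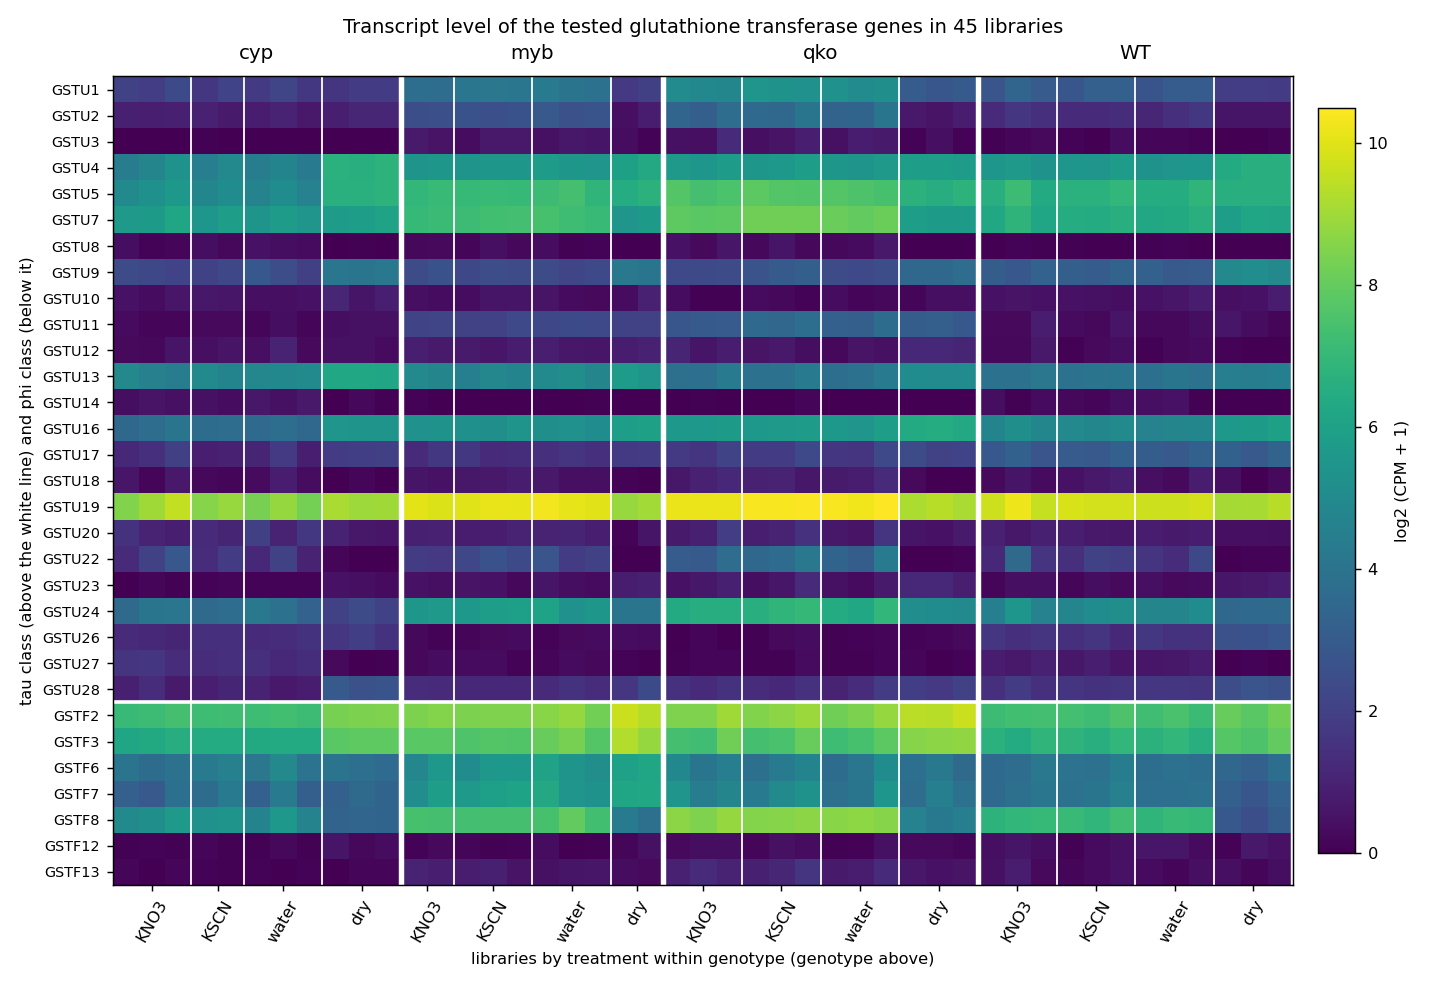
Transcript level, as log2 (CPM + 1), of the 31 tested genes (rows) in each of the 45 libraries (columns), ordered by genotype and then by treatment; tau genes stand above the white line and phi genes below it. GSTU19, GSTF2 and GSTF3 form the brightest rows in most groups, and GSTF8 is dark in dry seeds and bright in imbibed ones.

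Summed over all 39 genes, the family had 836 ± 134 CPM in cyp in water, 2574 ± 313 CPM in myb, 3067 ± 285 CPM in qko and 1581 ± 52.1 CPM in WT (SD, n = 3 each). No cyp library in water reached the lowest WT library, and no myb or qko library went down to the highest WT library. In dry seeds the sums were 1544 ± 23.3 CPM in cyp (n = 3), 2308 ± 145 CPM in myb (n = 2), 2162 ± 67.8 CPM in qko (n = 3) and 1478 ± 134 CPM in WT (n = 3). The classes split these sums differently. In dry myb and qko seeds the phi class held 1441 ± 220 and 1164 ± 92.2 CPM, against 502 ± 70.8 CPM in dry WT seeds, and the tau class held 867 ± 75.5 and 998 ± 39.6 CPM, against 976 ± 75.5 CPM in dry WT seeds. In water the tau class held 536 ± 99.9 CPM in cyp, 1625 ± 171 CPM in myb, 2076 ± 161 CPM in qko and 1162 ± 63.9 CPM in WT. The phi sums of dry myb and qko libraries lay above all dry WT libraries, while their tau sums overlapped those of WT.

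Of the 39 genes, 27 lie in 8 clusters of neighbours within 20 kb of each other. The largest holds GSTU7, GSTU6, GSTU5, GSTU4, GSTU3, GSTU2 and GSTU1 in this order on chromosome 2, and the next holds GSTU23, GSTU22, GSTU21, GSTU20 and GSTU19 on chromosome 1. The phi genes GSTF7, GSTF6, GSTF5 and GSTF4 stand side by side on chromosome 1. Near copies and overlapping transcripts can limit how reads are split, where reads could be assigned to both loci. For partner loci outside the 39 genes this was not checked. GSTF6 and GSTF7 share 17.2% of their 31-base words with each other, and GSTF3 shares 13.9% of its words with GSTF2. GSTF11 shares 93.7% of its words with AT3G03200, the largest share of the 39 genes, and GSTU6 28.2% with AT2G29430. GSTF11 and GSTU6 are among the genes that did not pass the filter, so their low counts may depend on how shared reads were split as well as on depth. GSTU2 shares 66.1% of its words with the overlapping locus AT2G29485, GSTU7 58.6% with AT2G08340 and GSTF2 53.9% with AT4G02510. Whether reads were assigned by strand is not given in the sources used here, so the levels of these members are uncertain to that degree.

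The letters TGACG, or CGTCA on the other strand, stand in the 300 bases before the gene start of 16 of the 39 genes (41.0%), in 13 of the 28 tau genes (46.4%) and in 3 of the 11 phi genes (27.3%), against 21.3% of the 27443 windows of this length before all genes. The letters ACGTG or CACGT, the core of elements bound by ABA-responsive factors, stand in 35.9% of the genes and 25.6% of all windows, and TTGAC or GTCAA, the core of elements bound by WRKY factors, in 64.1% and 50.4%. The windows of 4 tau genes are shown, chosen after their values were seen among those that hold TGACG or CGTCA, overlap no other annotated gene and are described with values per library. Each such match is in capitals, and they are read 5′ to 3′ on the strand of the gene (RefSeq assembly TAIR10.1). They are GSTU1 (chr2:12632539-12632838, minus strand), GSTU11 (chr1:26338819-26339118, minus strand), GSTU22 (chr1:29474004-29474303, minus strand) and GSTU26 (chr1:5874995-5875294, plus strand).
GSTU1: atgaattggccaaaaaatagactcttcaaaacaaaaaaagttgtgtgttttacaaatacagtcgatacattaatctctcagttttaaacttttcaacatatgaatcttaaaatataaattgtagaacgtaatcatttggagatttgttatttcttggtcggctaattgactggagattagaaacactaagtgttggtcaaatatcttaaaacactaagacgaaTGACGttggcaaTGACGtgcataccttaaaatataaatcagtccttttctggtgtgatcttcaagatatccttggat
GSTU11: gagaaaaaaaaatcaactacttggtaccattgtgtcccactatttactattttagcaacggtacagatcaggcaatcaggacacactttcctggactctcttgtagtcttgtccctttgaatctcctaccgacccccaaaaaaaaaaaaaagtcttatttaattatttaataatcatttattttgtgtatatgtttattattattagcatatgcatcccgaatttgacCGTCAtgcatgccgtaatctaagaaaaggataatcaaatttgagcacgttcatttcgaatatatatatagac
GSTU22: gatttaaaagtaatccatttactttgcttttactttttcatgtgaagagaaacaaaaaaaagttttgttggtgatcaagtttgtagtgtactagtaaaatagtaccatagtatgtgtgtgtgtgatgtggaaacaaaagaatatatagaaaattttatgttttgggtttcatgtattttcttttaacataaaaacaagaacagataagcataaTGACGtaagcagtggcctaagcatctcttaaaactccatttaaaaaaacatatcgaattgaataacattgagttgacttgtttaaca
GSTU26: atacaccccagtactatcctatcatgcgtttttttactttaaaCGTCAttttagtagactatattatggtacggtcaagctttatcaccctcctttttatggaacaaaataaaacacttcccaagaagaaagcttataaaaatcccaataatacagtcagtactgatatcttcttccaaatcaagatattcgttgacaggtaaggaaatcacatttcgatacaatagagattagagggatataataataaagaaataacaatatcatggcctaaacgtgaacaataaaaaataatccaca
GSTU1 holds the motif 2 times, GSTU11 and GSTU22 hold it 1 time within 100 bases of the gene start, and in GSTU26 it lies farther out. A match describes the sequence and is no evidence of binding.

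Seeds imbibed in water for 6 h were set against dry seeds of the same genotype, which asks what the family does as the seed takes up water. In WT, 9 of the 31 tested genes were higher in water and 9 were lower, a share of 58.1%. Of all tested loci 70.6% passed the threshold (adjusted p under 0.05), 37.1% as higher and 33.5% as lower. The family's median log2 fold change was 0.36 and that of all loci 0.08. Trimmed-mean scaling sets the middle of all loci near 0. Under scaling by total counts the median of all loci lay at 0.83 and the split of the family was 17 higher and 4 lower, so each direction here is relative to the bulk of the transcriptome. In the libraries labelled cyp 8 genes were higher and 14 lower, where 79.7% of all loci passed, 40.8% as higher and 38.9% as lower. In myb 10 were higher and 8 lower (66.2% of all loci, 34.8% higher and 31.3% lower), and in qko 11 and 8 (69%, of which 36.9% higher and 32.2% lower). By total counts these splits were 13 and 9, 15 and 1, and 17 and 3.

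GSTF8 (AT2G47730), a phi enzyme with a form in the chloroplast and a widely used stress reporter, had the largest WT response among genes of 5 CPM or more. It had 117, 135 and 125 CPM in water, against 6.37, 4.76 and 7.43 CPM in dry WT seeds, a log2 fold change of 4.34 (SE 0.21, adjusted p = 4.01e-19). Every imbibed library stood far above every dry one. In the libraries labelled cyp GSTF8 had 25.9, 46.8 and 24.9 CPM in water, against 9.17, 9.70 and 9.56 CPM when dry, and its log2 fold change was 1.78 (SE 0.19, adjusted p = 1.72e-10). In qko it had 389, 414 and 388 CPM in water, against 24.4, 18.1 and 21.5 CPM when dry. The response of cyp was smaller than that of WT by 2.56 on the log2 scale (difference -2.56, SE 0.28, adjusted p = 4.36e-09), the largest of the differences that passed in cyp.

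GSTU24 (AT1G17170), a tau enzyme induced by herbicides and explosives, rose in WT to 26.7, 26.1 and 33.6 CPM in water, against 10.5, 11.2 and 11.5 CPM in dry seeds (log2 fold change 1.38, SE 0.23, adjusted p = 3.13e-06). It also rose in cyp (1.89), myb (1.71) and qko (1.55), and no difference of these responses from WT passed. GSTU1 (AT2G29490) rose in WT to 5.64, 7.36 and 7.19 CPM in water, against 2.79, 2.70 and 2.55 CPM in dry seeds (1.33, SE 0.20, adjusted p = 3.52e-07). GSTU22 (AT1G78340) was almost silent in every dry seed, with at most 0.106 CPM in a dry library. In water it had 1.28, 3.20 and 1.01 CPM in cyp, 5.76, 2.52 and 3.25 CPM in myb, 9.35, 7.57 and 18.6 CPM in qko and 1.99, 1.52 and 3.78 CPM in WT. In myb, where both dry libraries were at 0, GSTU22 was at least 19.9-fold higher in water, computed against a floor of 3 counts per library.

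Among the genes that fell in WT was GSTU9 (AT5G62480), which had 8.17, 6.57 and 7.10 CPM in water, against 29.5, 34.2 and 30.0 CPM in dry seeds (log2 fold change -2.10, SE 0.17, adjusted p = 1.79e-13). It fell in every genotype, with -1.81 in cyp, -2.05 in myb and -1.38 in qko. GSTU26 (AT1G17190) had 2.24, 1.93 and 1.83 CPM in water, against 5.01, 5.19 and 6.12 CPM in dry WT seeds (-1.44, SE 0.24, adjusted p = 1.85e-06). GSTU28 (AT1G53680) had 2.16, 2.18 and 2.0 CPM in water, against 4.51, 5.90 and 5.10 CPM in dry WT seeds (-1.29, SE 0.25, adjusted p = 2.55e-05), but this call was lost under total-count scaling, where the value was -0.54. GSTU4 (AT2G29460) fell in cyp to 20.2, 25.4 and 18.6 CPM in water, against 102, 97.4 and 109 CPM when dry, by 2.27 on the log2 scale, and in WT by 1.09.

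GSTF2 (AT4G02520) and GSTF3 (AT2G02930), the abundant phi genes, passed as lower in every genotype, though not under every scaling. GSTF2 had 150, 159 and 146 CPM in water in cyp, against 322, 347 and 349 CPM in dry cyp seeds (-1.16), and 152, 179 and 143 CPM in water in WT, against 267, 221 and 294 CPM in dry WT seeds (-0.72, SE 0.15, adjusted p = 6.59e-05). Under total-count scaling the direction of GSTF2 in WT turned, to 0.03 with adjusted p = 0.844, and its calls in myb (-0.25) and qko (-0.23) were lost. GSTF3 fell in cyp (-1.47), myb (-1.04), qko (-1.14) and WT (-1.0), and under total-count scaling its calls in myb (-0.36) and in WT (-0.24) were lost. GSTF6 and GSTF7 did not pass in any genotype, with log2 fold changes from -0.53 to 0.83.

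**Figure D2:**
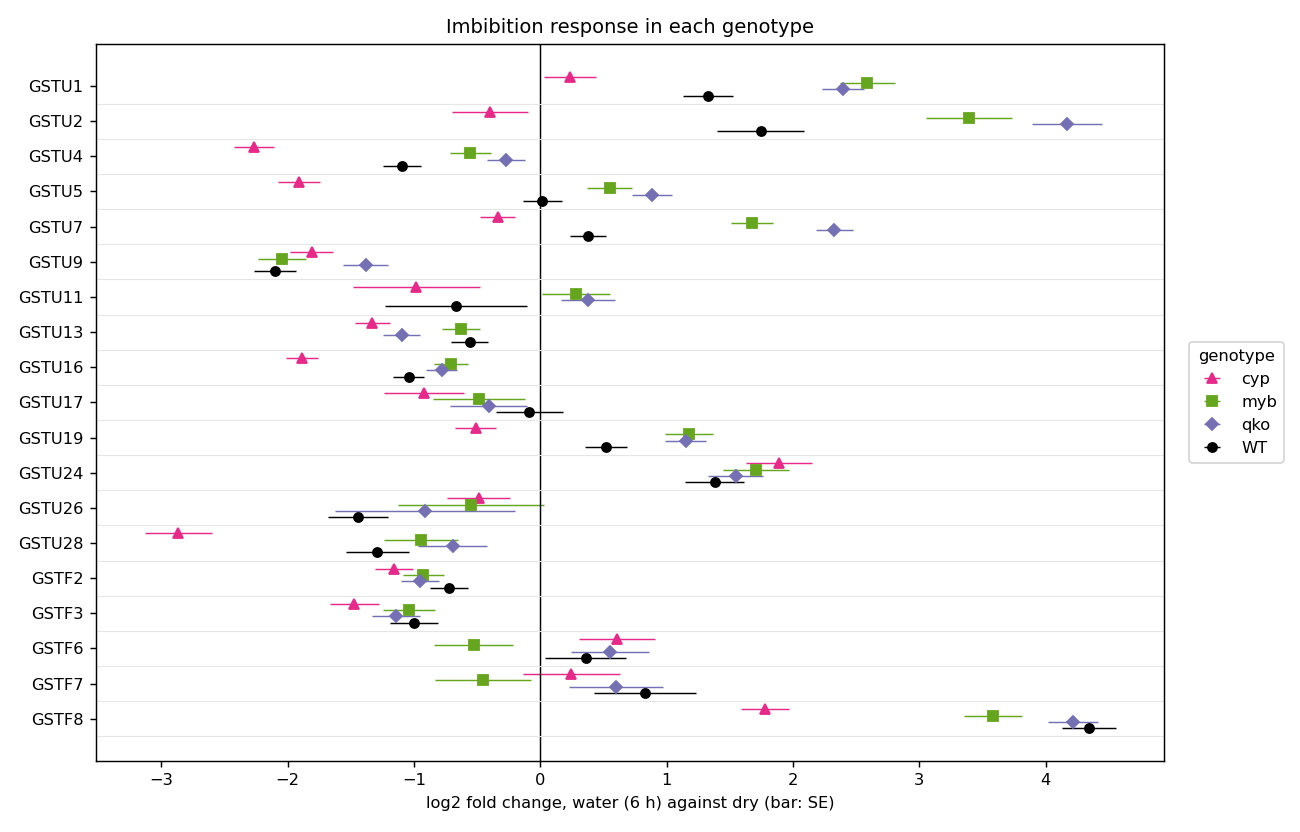
Log2 fold change of water (6 h) against dry seeds, with its SE, for 19 tested genes with a mean of at least 5 CPM in some group (GSTU22 is left out because its dry libraries were near 0), 1 symbol per genotype. GSTF8 lies farthest to the right, and GSTU5, GSTU7 and GSTU19 lie left of 0 in cyp and right of 0 in myb and qko, except that under total-count scaling GSTU7 and GSTU19 in cyp lie right of 0.

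The imbibition response itself differed from WT in 11 genes in cyp, of which 10 were lower and 1 higher (35.2% of all loci passed), in 3 genes in myb, all higher (11.5%), and in 10 genes in qko, of which 7 were higher and 3 lower (27.7%). Of all loci 22.8% passed as lower and 12.3% as higher in cyp, 6.14% and 5.39% in myb, and 13.6% and 14.1% in qko. All loci thus leaned to lower in cyp too, with a median of -0.097, against -0.77 for the 31 genes. These 3 comparisons share the WT libraries. GSTU5 (AT2G29450), a tau enzyme of the cluster on chromosome 2, did not pass in WT (log2 fold change 0.02, adjusted p = 0.931). It had 25.0, 32.9 and 24.1 CPM in cyp in water, against 99.2, 99.1 and 110 CPM in dry cyp seeds (-1.91, SE 0.16, adjusted p = 4.96e-13). In qko GSTU5 had 204, 189 and 172 CPM in water, against 106, 91.5 and 109 CPM when dry (0.88). Its response differed from that of WT by -1.93 in cyp (adjusted p = 1.88e-08) and by 0.87 in qko (adjusted p = 0.00315).

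GSTU7 (AT2G29420) stands in the same cluster. It had 42.5, 53.2 and 44.0 CPM in cyp in water, against 53.4, 58.4 and 64.9 CPM in dry cyp seeds. It had 173, 147 and 134 CPM in myb in water, against 43.5 and 51.4 CPM in dry myb seeds, and 274, 248 and 281 CPM in qko in water, against 57.5, 51.1 and 51.2 CPM in dry qko seeds. In WT the values were 77.0, 82.4 and 98.0 CPM in water, against 58.5, 70.8 and 68.8 CPM when dry. The dry libraries of the 4 genotypes lay between 43.5 and 70.8 CPM, and those in water stood in 4 separate ranges. The log2 fold changes were 1.68 in myb, 2.33 in qko and 0.38 in WT, and that of WT lost its call without dry replicate 5 (0.29) or without water replicate 9 (0.27). In cyp GSTU7 passed as lower. That call was lost without dry replicate 8 (-0.34) or 9 (-0.26) or water replicate 7 (-0.28) or 9 (-0.30). The response of GSTU7 differed from WT by -0.72 in cyp (adjusted p = 0.00503), by 1.3 in myb (adjusted p = 8.17e-05) and by 1.95 in qko (adjusted p = 4.42e-09).

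The response of GSTU2 (AT2G29480) differed from that of WT by -2.14 in cyp (SE 0.46, adjusted p = 0.000403) and by 2.42 in qko (SE 0.51, adjusted p = 0.000451). In qko the differences of GSTU12 (-4.23) and GSTU27 (-4.69) were larger, on almost no counts in dry WT seeds. GSTU2 had 9.13, 9.37 and 15.8 CPM in qko in water, against 0.652, 0.481 and 0.758 CPM in dry qko seeds, and in WT 1.16, 1.64 and 2.30 CPM in water, against 0.501, 0.497 and 0.510 CPM when dry. In cyp it had 0.770, 1.01 and 0.632 CPM in water, against 0.848, 1.16 and 1.17 CPM when dry, so its libraries overlapped there. For GSTU1 the differences were -1.09 in cyp (adjusted p = 0.00314) and 1.07 in qko (adjusted p = 0.00236). The difference of GSTU1 in myb was 1.26 (adjusted p = 0.00469) and that of GSTU2 in myb 1.65 (adjusted p = 0.0438), and without dry myb replicate 5 both calls were lost (1.11 and 1.17). That of GSTU2 was also lost in other settings, among them total-count scaling (1.57) and the replicate number as a block (1.19). GSTU19 (AT1G78380) rose in WT to 817, 814 and 866 CPM in water, against 540, 552 and 650 CPM when dry (0.52, adjusted p = 0.00534), and fell in cyp to 326, 460 and 311 CPM, against 563, 492 and 509 CPM when dry (-0.51). Its difference in response was -1.03 in cyp (SE 0.23, adjusted p = 0.000628). Under total-count scaling GSTU19 in cyp turned to 0.23 and did not pass (adjusted p = 0.177). GSTU7 in cyp turned to 0.40 and passed as higher (adjusted p = 0.00568). The differences in response of both stayed lower than in WT.

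Dry seeds of each mutant were set against dry WT seeds, which asks what the family looked like before any water was taken up. In cyp 4 genes were higher and 5 lower (29.4% of all loci passed), in myb 8 and 5 (38%), and in qko 10 and 5 (49%). These comparisons share the 3 dry WT libraries. The count for cyp depended on single libraries: 5 to 7 genes passed without 1 library, the fewest without dry WT replicate 8 or dry cyp replicate 8. By total counts the split for cyp was 10 higher and 4 lower, with the median of all loci at 0.41, and that for myb 8 and 3.

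GSTU13 (AT1G27130), the enzyme of indolic glucosinolate metabolism, had 75.6, 74.5 and 70.8 CPM in dry cyp seeds, 52.4 and 43.5 CPM in dry myb seeds and 33.6, 32.7 and 32.7 CPM in dry qko seeds, against 21.2, 20.6 and 22.1 CPM in dry WT seeds. None of the mutant libraries came down to the WT range. The log2 fold changes were 1.79 in cyp (SE 0.14, adjusted p = 2.07e-11), 1.17 in myb (SE 0.16, adjusted p = 2.41e-07) and 0.63 in qko (SE 0.15, adjusted p = 0.000458). After imbibition GSTU13 kept this direction in cyp and myb in each medium, with 28.3, 29.0 and 30.7 CPM in cyp and 31.3, 35.3 and 26.5 CPM in myb in water, against 13.3, 15.9 and 14.2 CPM in WT. In qko it had 12.9, 14.2 and 19.2 CPM in water, which overlaps WT, and did not pass in any medium (0.09 in water, -0.02 in KNO3 and 0.09 in KSCN).

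GSTF6 (AT1G02930), the camalexin enzyme, and its neighbour GSTF7 (AT1G02920) stood apart in the libraries labelled myb. GSTF7 had 72.4 and 77.9 CPM in dry myb seeds, against 8.23, 5.97 and 8.89 CPM in dry WT seeds, a log2 fold change of 3.29 (SE 0.42, adjusted p = 1.14e-07). GSTF6 had 62.7 and 73.5 CPM in dry myb seeds, against 9.94, 8.31 and 13.0 CPM in dry WT seeds (2.71, SE 0.34, adjusted p = 5.75e-08). Both genes were higher in the dry myb libraries than in any other dry library. In cyp, where the precursor enzymes of camalexin are the labelled genes, GSTF6 had 15.4, 13.1 and 11.7 CPM and did not pass (0.37, adjusted p = 0.43). In dry qko seeds GSTF6 had 13.0, 17.6 and 11.4 CPM and did not pass either (0.43, adjusted p = 0.286). GSTF7 had 12.4, 21.8 and 14.3 CPM in dry qko seeds and passed as higher (1.07, adjusted p = 0.0297), as it did in qko in KNO3 (1.12, adjusted p = 0.0103). The dry call was lost without WT replicate 5 (1.13) or 8 (0.92) or qko replicate 6 (0.80), and that in KNO3 without WT replicate 5 (0.98) or qko replicate 4 (0.76). The difference between myb and qko was not tested. Since the 2 genes share part of their sequence, the split of reads between them is uncertain.

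GSTF2 had 813 and 660 CPM in dry myb seeds and 668, 652 and 794 CPM in dry qko seeds, against 267, 221 and 294 CPM in dry WT seeds. The log2 fold changes were 1.5 in myb (SE 0.16, adjusted p = 4.2e-09) and 1.43 in qko (SE 0.15, adjusted p = 7.81e-10). GSTF3 went the same way, with 1.33 in myb and 0.91 in qko. In dry cyp seeds GSTF2 had 322, 347 and 349 CPM, all above the highest WT library, and narrowly did not pass (0.38, adjusted p = 0.0526). GSTF8 had 18.6 and 13.8 CPM in dry myb seeds and 24.4, 18.1 and 21.5 CPM in dry qko seeds, against the low dry WT values given above (1.38, adjusted p = 8.77e-06, and 1.79, adjusted p = 7.16e-09). In dry cyp seeds GSTF8 passed with 0.62 (adjusted p = 0.0283), and lost the call without WT replicate 5 (0.64) or 8 (0.46) or cyp replicate 8 (0.60) or 9 (0.62).

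GSTU26 was close to 0 in both genotypes that carry myb28 myb29. It had 0.265 and 0.250 CPM in dry myb seeds, 0.0725, 0.137 and 0.207 CPM in dry qko seeds and 2.17, 2.83 and 1.90 CPM in dry cyp seeds, against 5.01, 5.19 and 6.12 CPM in dry WT seeds. No myb or qko library came near the cyp or WT libraries. The log2 fold changes were -4.37 in myb (SE 0.39, adjusted p = 4.52e-11), -5.23 in qko (SE 0.38, adjusted p = 5.86e-14) and -1.24 in cyp (SE 0.24, adjusted p = 0.000147). The myb and qko values rest on few counts per library. In water GSTU26 had 0.0817, 0.203 and 0.235 CPM in myb and 0.0429, 0.0837 and 0.0892 CPM in qko, against 2.24, 1.93 and 1.83 CPM in WT, so the difference was present in imbibed seeds too (-3.48 and -4.70).

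GSTU11 (AT1G69930) showed the opposite pattern. It had 3.25 and 3.25 CPM in dry myb seeds and 7.61, 7.96 and 6.41 CPM in dry qko seeds, against 0.572, 0.284 and 0.146 CPM in dry WT seeds (3.26, adjusted p = 4.21e-08, and 4.43, adjusted p = 4.12e-13). In water it had 3.80, 4.11 and 3.95 CPM in myb and 8.36, 8.03 and 12.2 CPM in qko, against 0.166, 0.164 and 0.298 CPM in WT (4.21 and 5.48). Cyp libraries overlapped WT, with 0.0963, 0.327 and 0.126 CPM in water. Its neighbour in the genome, GSTU12, also passed in dry myb (4.84) and dry qko (5.37), where WT had 0.0715 CPM in 1 library and 0 in the other 2, so the size of that fold is not fixed by the counts. In the libraries labelled cyp GSTU12 was higher as well, by 3.51 in dry seeds (adjusted p = 0.0224) and by 1.75 in water (adjusted p = 0.0127). The dry call was lost without any of 4 libraries (3.01 to 3.41), and that in water without WT replicate 5 (1.31) or cyp replicate 8 (0.80).

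GSTU17 (AT1G10370), an enzyme that takes part in light and ABA responses of the plant, was lower in each mutant in each state of the seed. It had 2.65, 2.83 and 2.96 CPM in dry cyp seeds, 2.45 and 2.69 CPM in dry myb seeds and 4.28, 3.23 and 3.31 CPM in dry qko seeds, against 8.58, 6.54 and 9.03 CPM in dry WT seeds. The log2 fold changes were -1.52 in cyp (adjusted p = 0.000134), -1.64 in myb (adjusted p = 0.000229) and -1.16 in qko (adjusted p = 0.00113). In the imbibed groups they ran from -3.07 (cyp in KSCN) to -1.29 (qko in KSCN), and none of these 12 calls was lost when 1 library was left out. GSTU9 was likewise lower in dry cyp (-0.93), myb (-0.91) and qko (-1.48) seeds. GSTU24 had 3.18, 4.49 and 3.13 CPM in dry cyp seeds and 34.1, 33.1 and 31.1 CPM in dry qko seeds, against 10.5, 11.2 and 11.5 CPM in dry WT seeds (-1.62, adjusted p = 2.79e-05, and 1.57, adjusted p = 1.06e-06).

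**Figure D3:**
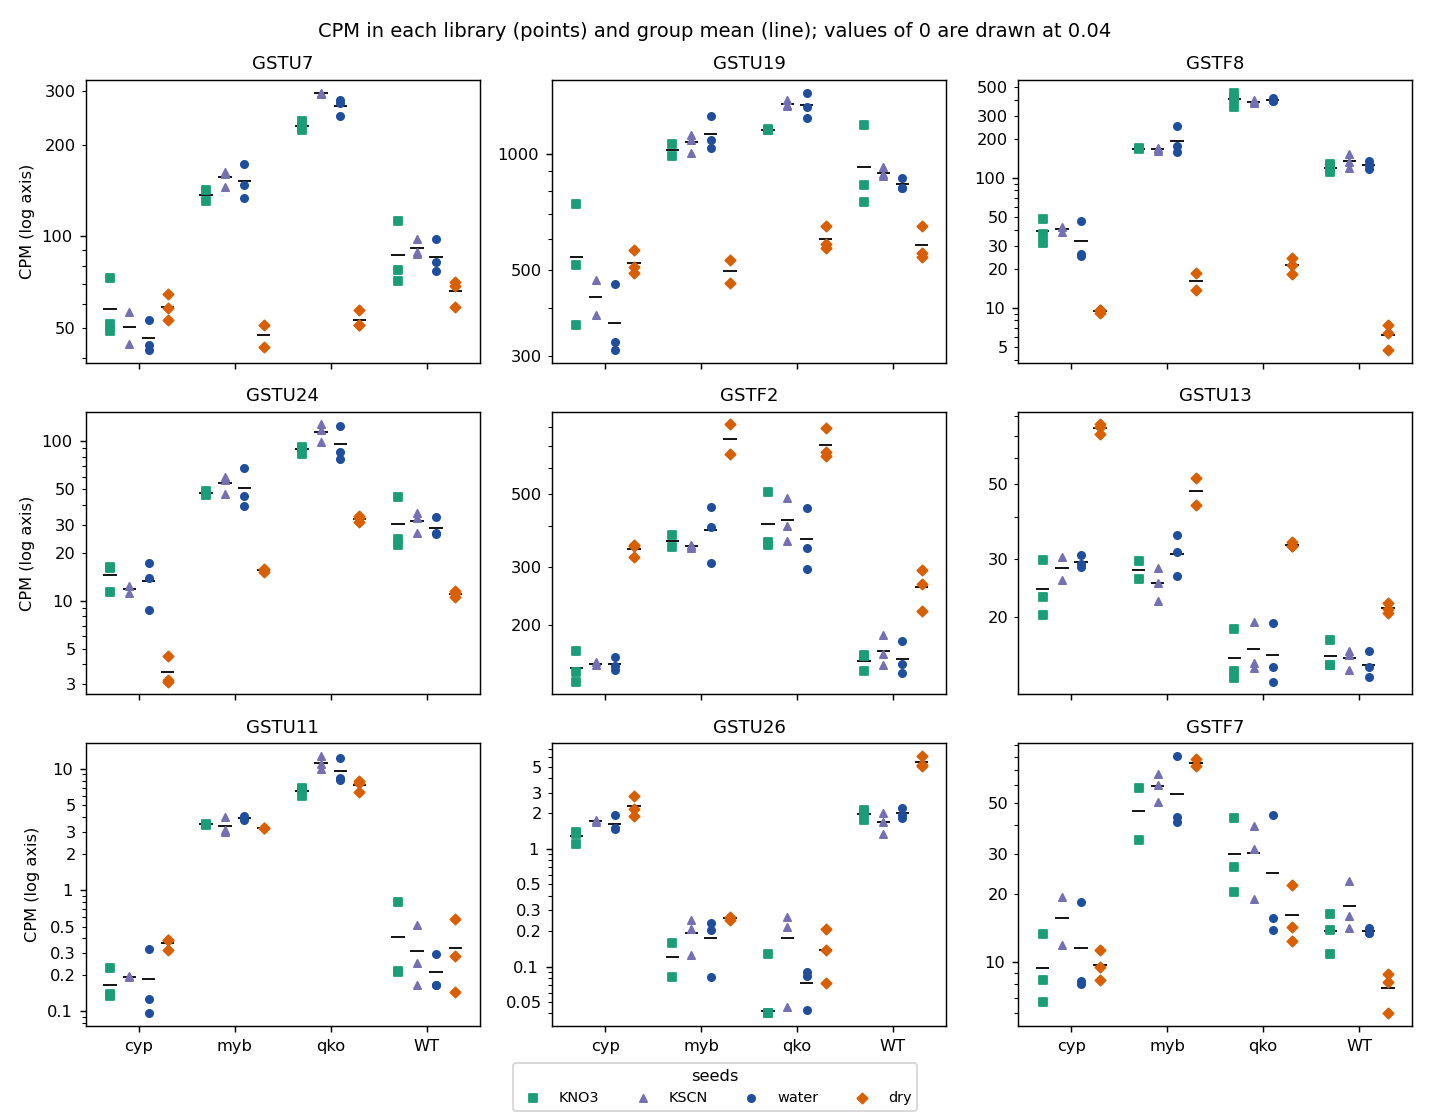
CPM (log axis) of 9 genes in every library, with the genotypes along the horizontal axis, 1 symbol per treatment and a line at the mean of each group; values of 0 are drawn at 0.04. In imbibed seeds the means of GSTU7 and GSTF8 run upward in the order cyp, WT, myb, qko; GSTU26 is near 0 in myb and qko, and GSTF7 is highest in myb.

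Imbibed seeds of each mutant were then set against WT seeds in the same medium, which asks how the mutants differ once metabolism has restarted. In water cyp had 5 genes higher and 16 lower (63.1% of all loci passed), myb 16 higher and 6 lower (35.6%) and qko 15 higher and 6 lower (50.7%). The median log2 fold change over the 31 genes was -0.64 in cyp, 0.62 in myb and 0.84 in qko, and that of all loci was 0.00 in each. Of all loci, 31.9% passed and were lower in cyp, 17.9% passed and were higher in myb and 25.8% passed and were higher in qko. KNO3 and KSCN gave separate libraries of each genotype, but these share replicate numbers with the libraries in water. In qko the numbers 4, 6 and 7 recur in all 3 media and pair the samples (correlations 0.336 to 0.56 for KNO3 and 0.37 to 0.624 for KSCN). The 3 media are thus not independent repeats. Leaving out 1 library does not take a replicate number out of all 3. In KNO3 the counts were 2 higher and 18 lower in cyp (58.7%), 12 and 4 in myb (26.7%), and 17 and 6 in qko (49.5%). In KSCN they were 3 and 14 in cyp (58.5%), 15 and 5 in myb (30.5%), and 16 and 3 in qko (52.6%). By total counts the split of cyp in KSCN was 7 higher and 12 lower.

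In cyp 15 genes had the same call in water, KNO3 and KSCN, 2 higher and 13 lower. Of all tested loci 49.2% did, 23.7% as higher and 25.5% as lower. Of the 15 genes, 12 kept all 3 calls without any 1 library. These 12 were GSTU13 and GSTU27, which were higher, and GSTU1, GSTU4, GSTU5, GSTU7, GSTU9, GSTU16, GSTU17, GSTU19, GSTU24 and GSTF8, which were lower. GSTU5 had 25.0, 32.9 and 24.1 CPM in cyp in water, against 88.9, 89.8 and 115 CPM in WT in water (-1.84, SE 0.16, adjusted p = 7.53e-12). In KNO3 the value was -1.5 and in KSCN -1.87. GSTU19 had 326, 460 and 311 CPM in cyp in water, against 817, 814 and 866 CPM in WT (-1.19, SE 0.17, adjusted p = 1.54e-07). GSTU16 (AT1G59700) had 11.1, 13.0 and 10.6 CPM in cyp in water, against 24.3, 26.7 and 27.3 CPM in WT (-1.17, SE 0.13, adjusted p = 7.51e-10). Under total-count scaling the calls of GSTU9 in water (-0.27) and of GSTU7 in KNO3 (-0.27) were lost. In GSTU5, GSTU19 and GSTU16 no cyp library in water reached a WT library. GSTU27 (AT3G43800) had 1.73, 1.27 and 1.58 CPM in cyp in water, against 0.539, 0.616 and 0.723 CPM in WT (1.28, SE 0.33, adjusted p = 0.00106).

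In qko 16 genes had the same call in the 3 media, 13 higher and 3 lower, where 39.1% of all loci did, 20.4% as higher and 18.6% as lower. Of the 16 genes, 13 kept all 3 calls without any 1 library. Higher were GSTU1, GSTU2, GSTU5, GSTU7, GSTU11, GSTU16, GSTU24, GSTF2, GSTF3 and GSTF8, and lower were GSTU17, GSTU26 and GSTU27. GSTU1 had 38.8, 32.0 and 36.1 CPM in qko in water, against 5.64, 7.36 and 7.19 CPM in WT (2.40, SE 0.16, adjusted p = 7.89e-15). GSTU22, with the values given above, was higher in qko in water (2.28, SE 0.53, adjusted p = 0.000533) and in KSCN (2.37) but did not pass in KNO3 (0.85, adjusted p = 0.158). GSTU24 had 85.6, 77.7 and 124 CPM in qko in water, against 26.7, 26.1 and 33.6 CPM in WT (1.73, SE 0.22, adjusted p = 2.48e-08). GSTF8 had 389, 414 and 388 CPM in qko in water, against 117, 135 and 125 CPM in WT (1.66, SE 0.18, adjusted p = 7.78e-10). Each of these qko libraries lay above all WT libraries. Without the 4 libraries of qko replicate 7 these 3 genes kept their calls.

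In myb 16 genes had the same call in the 3 media, 12 higher and 4 lower, where 19.2% of all loci did, 10.9% as higher and 8.3% as lower. Of the 16 genes, 10 kept all 3 calls without any 1 library. Higher were GSTU1, GSTU2, GSTU7, GSTU11, GSTU13, GSTF2, GSTF3 and GSTF7, and lower were GSTU17 and GSTU26. GSTF7 had 80.2, 43.5 and 41.4 CPM in myb in water, against 13.4, 13.4 and 14.2 CPM in WT (2.01, SE 0.36, adjusted p = 4.23e-05). GSTU2 had 6.65, 5.0 and 5.68 CPM in myb in water, against 1.16, 1.64 and 2.30 CPM in WT (1.76, SE 0.22, adjusted p = 9.59e-08). GSTF2 had 397, 457 and 309 CPM in myb in water, against 152, 179 and 143 CPM in WT (1.29, SE 0.15, adjusted p = 1.72e-08). GSTF3 had 267, 324 and 203 CPM in myb in water, against 107, 124 and 93.8 CPM in WT (1.29, SE 0.19, adjusted p = 1.38e-06). The libraries of these 4 genes did not overlap between myb and WT.

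The sign of several genes was opposite between cyp and the other mutants, each compared with the same WT libraries. GSTU1 in water differed from WT by -1.28 in cyp, by 1.26 in myb and by 2.40 in qko. GSTU7 in water differed by -0.88 in cyp, by 0.82 in myb and by 1.64 in qko. GSTU2 differed by -1.07 in cyp, by 1.76 in myb and by 2.75 in qko. GSTF8 differed by -1.95 in cyp, by 0.62 in myb and by 1.66 in qko, and its call in myb was lost without myb water replicate 7 (0.40). GSTU27 went the other way, with 1.28 in cyp, -1.81 in myb and -3.33 in qko. Each value stands with its own adjusted p under the threshold, and the difference between one mutant and another was not tested.

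**Figure D4:**
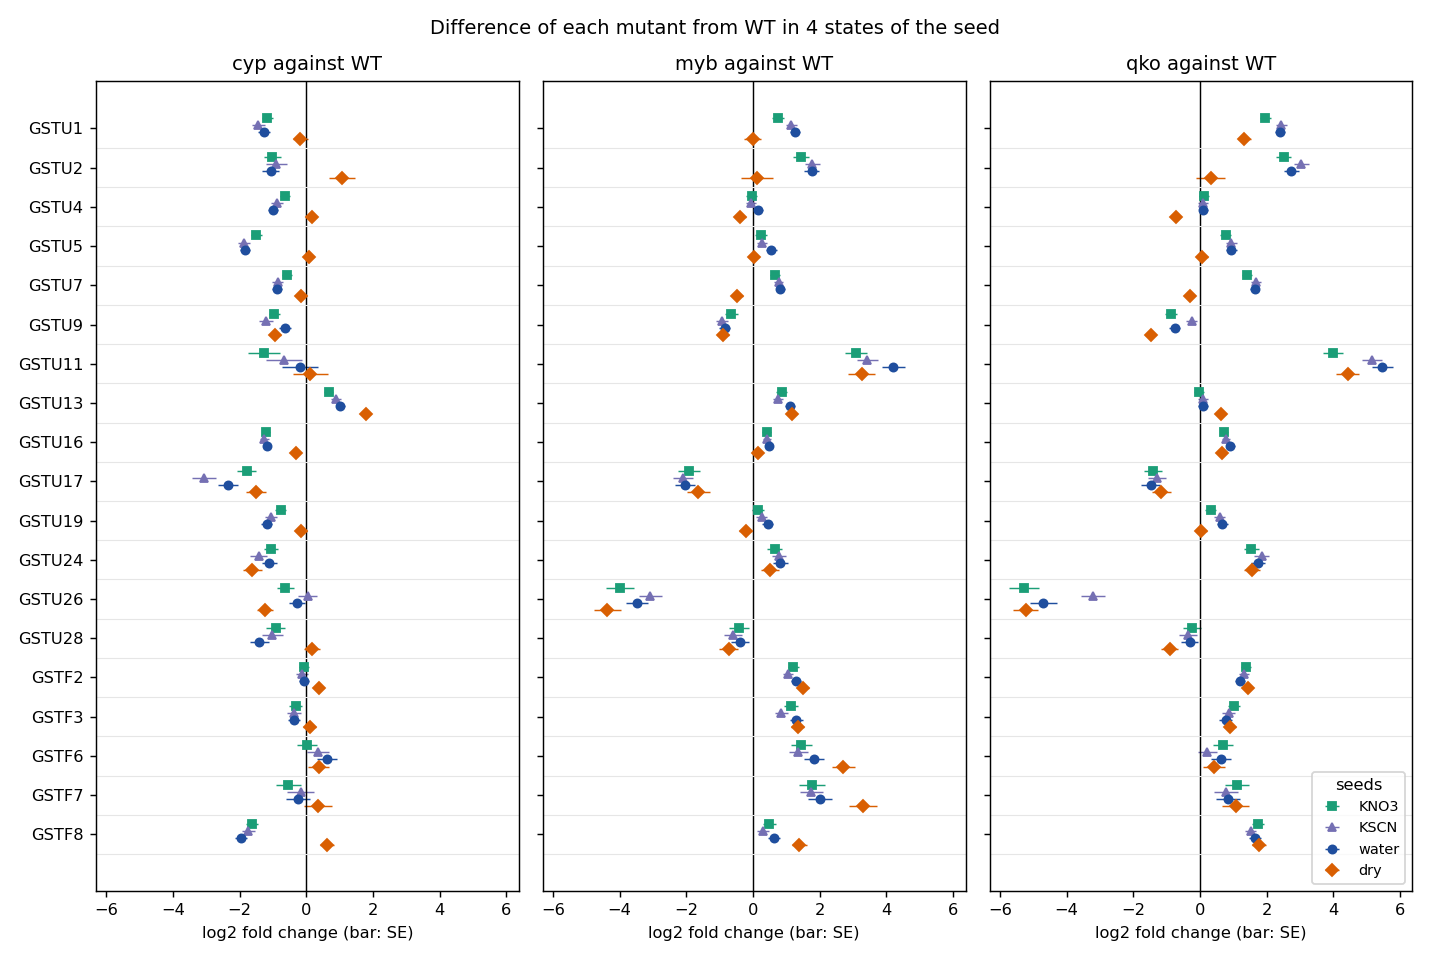
Log2 fold change against WT, with its SE, of 19 tested genes in cyp, myb and qko (panels from left to right), for seeds in KNO3, KSCN and water and dry seeds. GSTU1, GSTU2, GSTU5, GSTU7, GSTU24 and GSTF8 lie left of 0 in imbibed cyp seeds and right of 0 in imbibed qko seeds, and GSTU17 lies left of 0 in every panel.

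Members with a known place in seed or glucosinolate chemistry were mostly scarce. GSTF11, the aliphatic glucosinolate enzyme, had 20 counts in all libraries together and at most 0.208 CPM in any of them, so a difference between genotypes was not detectable here. Most of its sequence is shared with AT3G03200, as given above, and the part of read splitting in its low counts was not tested. GSTU20 (AT1G78370), the other enzyme of that pathway, had 1.02, 1.1 and 0.861 CPM in myb in water and 0.600, 0.460 and 2.10 CPM in qko in water, against 0.788, 0.699 and 0.808 CPM in WT in water. Neither difference passed (0.37, adjusted p = 0.577, and 0.45, adjusted p = 0.461). In cyp GSTU20 had 2.92, 0.981 and 2.21 CPM in water and passed (1.41, adjusted p = 0.00614), and this call was lost without cyp replicate 7 (1.06). GSTF12 (AT5G17220), the pigment carrier, had 0.0321, 0.163 and 0.0316 CPM in cyp in water, against 0.539, 0.534 and 0.255 CPM in WT in water (-2.48, SE 0.73, adjusted p = 0.00345). The cyp values rest on 1, 5 and 1 counts, and GSTF12 did not pass in cyp in KSCN (-1.72). It also passed as lower in myb in water (-1.99), a call lost, for instance, without WT water replicate 5 (-1.83). GSTU25, which neighbours GSTU24 and responds to xenobiotics, reached at most 0.618 CPM, in a dry qko library, and was at 0 in all dry WT libraries.

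The tandem clusters did not move as blocks in every comparison. In the cluster of GSTU1 to GSTU7, 6 genes were tested; all 6 were lower in cyp in water, and 5 were higher in myb and in qko in water, where GSTU4 did not pass (0.16 and 0.11). In dry seeds the same 6 genes gave 1 higher in cyp, 1 lower in myb, and 1 higher and 1 lower in qko. In the cluster of GSTU24 to GSTU26 the 2 tested genes went opposite ways in qko in water, with GSTU24 higher (1.73) and GSTU26 lower (-4.70). In water 11 of the 21 tested genes in clusters and 5 of the 10 outside them were lower in cyp, and 10 of 21 and 5 of 10 were higher in qko. Of all loci 31.9% were lower in cyp in water and 25.8% were higher in qko in water. Of the 14 tested genes with TGACG or CGTCA in the window before the gene, 10 were higher and 3 lower in qko in water, and of the 17 without it 5 were higher and 3 lower. Of all loci 24.9% were lower in qko in water. In cyp in water the counts were 2 higher and 8 lower with the letters, and 3 higher and 8 lower without them. In myb in water they were 8 and 4 with the letters, and 8 and 2 without (17.9% and 17.7% of all loci). In dry qko they were 5 and 2, and 5 and 3 (25.4% and 23.6% of all loci). For water against dry in WT they were 6 and 3, and 3 and 6 (37.1% and 33.5% of all loci). Calls of all loci by these letters were not counted. These are counts over few genes, and neighbours are not independent of each other.

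KNO3 and KSCN were set against water within each genotype, which asks whether nitrate or thiocyanate changed the family. None of the 31 genes passed in any genotype in edgeR's test (0% of all loci passed in each of these comparisons, except 1.98% for KNO3 in cyp, 1.14% as higher and 0.841% as lower). At an unadjusted p under 0.05 KNO3 gave 4 genes in cyp, 0 in myb, 2 in qko and 0 in WT, and KSCN gave 1, 2, 1 and 0 in the same order. DESeq2 called 1 gene for KNO3 in cyp and 0 in the others. For KNO3 in cyp the fit with the replicate number as a block called 5 genes, 4 higher and 1 lower, and leaving out 1 library gave 0 to 4. Those samples share only 2 replicate numbers (correlations 0.081 and 0.474), fewer than the 3 pairs asked for here, so whether the numbers pair them could not be judged. For KNO3 the gene with the smallest p in cyp was GSTU19, with 362, 516 and 740 CPM in KNO3, against 326, 460 and 311 CPM in water (0.56, SE 0.16, adjusted p = 0.0654), and the 2 groups overlap. In the other genotypes it was GSTU1 in myb (-0.35), GSTU11 in qko (-0.53) and GSTU11 in WT (0.95). For KSCN it was GSTU9 in cyp (-0.42), GSTF3 in myb (-0.41, adjusted p = 0.368), GSTU9 in qko (0.66) and GSTU10 in WT (-0.64). In qko GSTU9 had 5.46, 6.78 and 8.14 CPM in KSCN, against 4.25, 4.02 and 4.64 CPM in water, so the 2 groups do not overlap, with adjusted p = 1 over all loci. None of the differences in response to KNO3 or KSCN between a mutant and WT passed either, and none of all loci did. In those 6 comparisons 0 to 2 of the genes had an unadjusted p under 0.05. The genes with the smallest p were GSTU12 in cyp (-1.90), GSTU1 in myb (-0.50) and GSTU11 in qko (-1.48) for KNO3, and GSTU9 in cyp (-0.58), GSTU10 in myb (1.17) and GSTU26 in qko (1.49) for KSCN. A p that misses the threshold does not show that the seeds in these media were alike.

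Genes of glutathione supply and use outside the 2 classes chosen here were read from a list of 28, of which 25 were tested. In WT 9 were higher and 11 lower in water than in dry seeds, a share of 80%, where 70.6% of all loci passed. In water 8 were higher and 11 lower in cyp against WT (76%, and 63.1% of all loci), 8 and 6 in myb (56%, and 35.6% of all loci), and 9 and 5 in qko (56%, and 50.7% of all loci). GSH1, which makes the first step of glutathione synthesis, had 188 ± 5.23 CPM in cyp, 188 ± 8.48 CPM in myb and 159 ± 20.3 CPM in qko in water, against 385 ± 9.26 CPM in WT in water (SD, n = 3 each). GGCT2;1, which breaks glutathione down in the cytosol, had 85.9 ± 17.4 CPM in myb and 126 ± 35.1 CPM in qko in water, against 0.780 ± 0.142 CPM in WT in water. Its log2 fold changes were 6.78 (SE 0.25, adjusted p = 7.42e-21) and 7.33 (SE 0.25, adjusted p = 7.42e-22). DHAR2, which recycles ascorbate with glutathione, had 101 ± 2.94 CPM in qko in water, against 19.7 ± 0.703 CPM in WT in water (2.36, SE 0.10, adjusted p = 1.90e-20). GGP1, another enzyme of glutathione breakdown, was higher in myb in water (1.74, SE 0.11, adjusted p = 2.80e-15). Neither gene stood apart in 1 mutant alone. In water GGP1 had 1507, 1573 and 1695 counts before scaling in qko, against 407, 350 and 364 in WT. DHAR2 had 1567, 1490 and 1405 counts in myb, against 472, 464 and 481 in WT.

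Of the 6 TGA factors listed, all were tested. In water 2 were lower in cyp against WT (33.3%, and 63.1% of all loci passed) and 2 in myb (33.3%, and 35.6%), and in qko 1 was higher and 2 were lower (50%, and 50.7%). The response to water was lower than that of WT for 5 of the 6 in cyp, where 35.2% of all loci passed, 22.8% as lower and 12.3% as higher. For KNO3 against water in cyp 3 were higher, TGA1 (0.71), TGA4 (0.50) and TGA5 (0.30), where 1.98% of all loci passed, and these calls were not tested without single libraries. TGA1 had 232 ± 48.7 CPM in cyp in water, against 474 ± 39.9 CPM in WT in water (-1.03, SE 0.15, adjusted p = 1.93e-07). In myb and qko the TGA factors that passed in water differed from WT by at most 0.51 on the log2 scale (TGA3 in qko).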

How the data were processed

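Total RNA of whole seeds was measured by RNA-seq in 45 libraries. The deposited table holds estimated counts per transcript, which the authors made with Salmon per the submitters' processing notes. Not given in the sources used here are Salmon's version, its index, the genome build and the strand setting. The estimated counts of 48268 transcripts were summed to 27587 loci and rounded to whole numbers. CPM are counts relative to a library's total after trimmed-mean (TMM) adjustment, and levels per kb divide CPM by the longest transcript of the locus.

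Tests used edgeR 4.0.16 in R 4.3.3: quasi-likelihood F-tests in 1 fit of the 45 libraries, where every one of the 16 groups had its own coefficient, trimmed-mean (TMM) scaling, and a filter on low counts (filterByExpr, minimum count 10, minimum total 15) that left 18066 loci. p-values were adjusted by Benjamini-Hochberg over all tested loci, and a call is an adjusted p under 0.05. Differences in response are interaction contrasts. SE is the absolute log2 fold change over the square root of F. The procedure was tested on simulated data. Gene positions and the 300 bases before each gene start came from RefSeq (TAIR10.1), matched by locus for all 39 genes. In place of protein identity, shared words of 31 bases between transcripts were counted.

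Genes with values per library were up to 6 per comparison of imbibition in WT and of each mutant and WT (dry, and water), by absolute fold change among called genes of at least 5 CPM without overlap between groups. Genes with a known role were added, as were, in the media comparisons, called genes or the one with the smallest p. Values of GSTU4 are given though no part of this rule names it, and it was chosen after its values were seen. The genes and lists were chosen with earlier results of these data known.

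Alternatives were total-count scaling, DESeq2 size factors, the DESeq2 test (1.42.0), no filter, each library left out, qko replicate 7 or the imbibed cyp replicate 8 left out, the replicate number as a block, clusters within 50 kb, and the shortest transcript as length. The numbers were taken to pair samples where at least 3 pairs all had a correlation over 0.1, which held for qko in KNO3 against water (correlations 0.336 to 0.56, 3 pairs) and in KSCN against water (0.37 to 0.624, 3 pairs). Comparisons with fewer shared numbers could not meet this rule, so pairing was not judged there.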

Additional observations from a re-analysis of the deposited data

Results flagged for a closer look

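The response to water, imbibed against dry, differed between a mutant and WT in 24 cases by the interaction test of edgeR with Benjamini-Hochberg adjustment over all tested loci. These were 35.5% of the tested genes in cyp, 9.68% in myb and 32.3% in qko, where 35.2%, 11.5% and 27.7% of all loci passed. By direction, 22.8% of all loci passed as lower and 12.3% as higher in cyp, 6.14% and 5.39% in myb, and 13.6% and 14.1% in qko. Values are differences in log2 fold change, mutant minus WT, and all 3 mutants share the WT libraries.

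In cyp the response was lower for GSTU1 (-1.09), GSTU2 (-2.14), GSTU4 (-1.17), GSTU5 (-1.93), GSTU7 (-0.72), GSTU13 (-0.77), GSTU16 (-0.85), GSTU19 (-1.03), GSTU28 (-1.58) and GSTF8 (-2.56). It was higher for GSTU26 (0.95), whose call was lost without any of 6 of the libraries, with values from 0.82 to 0.93.

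In myb the response was higher for GSTU1 (1.26), GSTU2 (1.65) and GSTU7 (1.3). Without dry myb replicate 5 GSTU1 (1.11) and GSTU2 (1.17) did not pass. GSTU2 was also lost without dry WT replicate 5 (1.63), 8 (1.63) or 9 (1.62), WT water replicate 5 (1.43) or 8 (1.62), or myb water replicate 6 (1.53). Total-count scaling (1.57), no filter (1.63) and the replicate block (1.19) lost the call of GSTU2 too.

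In qko the response was higher for GSTU1 (1.07), GSTU2 (2.42), GSTU4 (0.82), GSTU5 (0.87), GSTU7 (1.95), GSTU9 (0.72) and GSTU19 (0.63), and lower for GSTU12 (-4.23), GSTU13 (-0.54) and GSTU27 (-4.69). GSTU9 was lost without dry WT replicate 8 (0.64), WT water replicate 8 (0.65), dry qko replicate 4 (0.69) or 6 (0.67), or qko water replicate 7 (0.66). GSTU12 was lost without dry WT replicate 8 (-3.74) or 9 (-3.76) or WT water replicate 9 (-3.69), and GSTU27 without dry qko replicate 4 (-3.77). The dry WT libraries of GSTU12 and GSTU27 hold almost no counts, so the size of these values is not fixed. GSTU13 kept its call only without WT water replicate 5 or qko water replicate 7, and ranged from -0.58 to -0.42 in the other cases. GSTU19 was lost without any of 7 of the 12 libraries, with values from 0.53 to 0.64, and without the 4 libraries of qko replicate 7 (0.52).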

How the results depend on the processing

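Of 317 calls of single genes, DESeq2 size factors and the DESeq2 test each kept 317, no filter 311, the replicate block 307 and total-count scaling 284, with 25 lost and 8 turned. Without qko replicate 7, 98 of 107 calls were kept, and without the imbibed cyp replicate 8, 84 of 91. Leaving out 1 library kept 1787 of 1979 calls and turned none.

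Under total-count scaling the turned values were GSTU13 in WT (0.19) and myb (0.0533), GSTF2 in WT (0.0327), GSTU7 (0.40) and GSTU19 (0.23) in cyp, GSTU4 in myb (0.12) and GSTU28 in qko (0.032), all water against dry, and GSTU16 in dry cyp against WT (0.0562). Of these only GSTU7 in cyp passed in the new direction (adjusted p = 0.00568). That scaling sets no common middle between libraries. It also raised the count for dry cyp against WT, 9 genes, to 14. For KNO3 against water in cyp, 0 genes, the replicate block gave 5 and the DESeq2 test 1. Those samples share only 2 replicate numbers, so whether the numbers pair them could not be judged, and the cause was not tested.

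With 1 library left out, the number of called genes for water against dry was 20 to 23 in cyp, 14 to 22 in myb, 17 to 21 in qko and 16 to 19 in WT. Against WT it was, for cyp, myb and qko in this order, 5 to 7, 11 to 14 and 14 to 15 in dry seeds, 19 to 22, 17 to 21 and 21 to 23 in water, 17 to 19, 11 to 17 and 18 to 24 in KNO3, 13 to 18, 16 to 19 and 18 to 21 in KSCN. For the difference in response to water it was 10 to 13, 1 to 4 and 7 to 9, the 1 in myb without dry myb replicate 5. For KNO3 against water in cyp it was 0 to 4, the 4 without cyp water replicate 8 or KNO3 replicate 6, and 0 in every other media comparison.

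The block changed no call in the qko media comparisons, where the numbers pair the samples. Genes under about 1 CPM are limited by depth, and groups of 2 libraries by their number.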
